A study of Mus musculus with 2 samples.

Results

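The genes described here are 9 integrin subunits, Itgam, Itga1, Itga2, Itga4, Itgae, Itgal, Itgb1, Itgb2 and Itgb7, together with Icam1, the gene of an integrin ligand. They were taken by symbol from the gene rows of both count tables, 10 genes of 27998, and their levels were described by library and by cell state. The tables hold 26 integrin subunit genes, and the other 17 served as a comparison list. The cells were natural killer (NK) cells infiltrating tumors grown from RMA-S, a mouse lymphoma cell line whose surface holds little MHC class I, injected under the skin 2 weeks before collection. They had been sorted as negative for CD3ε and positive for NK1.1 and profiled with 10x Genomics 3′ libraries, in which a unique molecular identifier (UMI) lets each captured transcript be counted once. Mice with Hif1a deleted in NK cells gave 1 library, called KO here, and wild-type mice gave 1, called WT. The labels do not name the Cre driver, the deleted exons, the age of the mice or how many mice and tumors went into a library. Every difference between KO and WT therefore describes 2 libraries and has no replicate check, and no p-value is given.

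Integrins are surface receptors made of an alpha and a beta chain, and a chain reaches the surface mainly as part of such a pair. On NK cells the beta2 pairs LFA-1 (Itgal with Itgb2) and Mac-1 (Itgam with Itgb2) hold the cell to targets that carry ICAM-1, and CD11b, the protein of Itgam, is a standard marker of NK cell maturation. Alpha4 pairs with beta1 or beta7 to bind VCAM-1, fibronectin or MAdCAM-1, the alpha1 and alpha2 chains pair with beta1 to bind collagens and laminin, and alphaE pairs with beta7 to bind E-cadherin. The alpha1 and alpha2 proteins, CD49a and CD49b, are widely used to separate group 1 innate lymphoid cells (ILC1) from conventional NK cells in mice, and Icam1 is a well-known target gene of NF-kB.

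After filtering, 3067 KO and 3555 WT cells remained. Of these, 2883 KO cells (94.0%) and 3290 WT cells (92.5%) were NK-like, with 12261024 and 17935364 UMIs in all and a median of 3748 and 4418.5 UMIs per cell. An ILC1-like cluster held 107 and 146 cells and a T-like cluster 71 and 113, and 12 cells stayed unnamed. Clusters were drawn without the 10 genes and the adhesion genes listed below. The ILC1-like cluster had 5 of its own markers among its 10 leading genes, Tmem176b, Tmem176a, Il7r, Cxcr6 and Rora, and 4 MHC class II genes, Cd74, H2-Aa, H2-Eb1 and H2-Ab1, that stood on the dendritic cell list. Although the sort was for cells negative for CD3ε, a Cd3e UMI was found in 49.2% of the T-like cells in KO and 44.6% in WT. Hif1a itself stood at 60.1 UMIs per 1000000 (CPM, counts scaled to the same total) in KO and 58.7 CPM in WT NK-like cells, and 3′ tags outside a deleted part say nothing about the deletion. The libraries shared 19 cell barcodes. Hemoglobin and red cell markers summed to 298 CPM in KO and 784 CPM in WT NK-like cells, and cycling markers to 196 and 437 CPM.

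Icam1 (chromosome 9, 21015985 to 21028817, plus strand, GRCm38) encodes the ligand of LFA-1 and Mac-1, and lymphocytes carry it as well as bind it. Promoter sequences were at hand for 7 of the 10 genes, from RefSeq on GRCm38.p6, and Itgae, Itgal and Itgb2 had none there. Shown are the 250 bases before the start sites of Icam1, Itgb1 and Itgam. Those of Icam1, which differed most between the libraries among the 10 genes, are at chr9:21015690-21015939. The RefSeq start site of Icam1 lies upstream of the gene start given above, and distances are counted from the RefSeq site. Those of the integrin gene Itgb1, at chr8:128685404-128685653, hold the same searched letters, and those of Itgam, at chr7:128062390-128062639, do not. All are on the plus strand, read 5′ to 3′, with NF-kB letters in capitals.

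Icam1: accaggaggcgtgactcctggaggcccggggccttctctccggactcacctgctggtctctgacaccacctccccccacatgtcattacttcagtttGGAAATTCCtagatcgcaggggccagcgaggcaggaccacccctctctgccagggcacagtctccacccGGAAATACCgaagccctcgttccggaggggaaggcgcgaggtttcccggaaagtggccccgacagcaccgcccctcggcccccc

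Itgb1: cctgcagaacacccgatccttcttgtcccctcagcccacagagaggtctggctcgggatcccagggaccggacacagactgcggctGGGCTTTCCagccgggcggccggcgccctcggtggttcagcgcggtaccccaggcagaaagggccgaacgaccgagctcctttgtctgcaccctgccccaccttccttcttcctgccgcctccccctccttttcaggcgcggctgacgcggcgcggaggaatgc

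Itgam: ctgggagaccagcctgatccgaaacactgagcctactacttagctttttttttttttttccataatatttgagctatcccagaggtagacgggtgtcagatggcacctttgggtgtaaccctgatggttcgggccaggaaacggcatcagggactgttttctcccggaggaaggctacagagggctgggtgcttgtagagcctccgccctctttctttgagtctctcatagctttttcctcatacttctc

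The letters searched for NF-kB were GGNNNTTCC on both strands, from 250 bases before to 50 after the start. They were found in 3 of the 7 promoters, and in 18.5% of 32851 promoters of this length. Icam1 held GGAAATTCC with its first base at -153 from the start site, which reads as a match on both strands, and GGAAATACC at -84, a match on the other strand. Icam1 also held TTCCCGGAA at -42, a match to TTCNNNGAA, the letters searched for STAT, which 8.30% of promoters held. Itgb1 held GGGCTTTCC at -164, and Itga2 held GGCGGTTCC at 4, just after the start. The promoters of Itgam, Itga1, Itga4 and Itgb7 held no NF-kB match in this window. Letters for AP-1 (TGANTCA) and for the ETS factor PU.1 (GAGGAAGT) were also searched, and 7.81% and 3.20% of all promoters held them. Itgb7 held the PU.1 letters at 1, on the other strand. The hypoxia-response core, searched as ACGTG or GCGTG, was present in 43.8% of all promoters, and here in those of Icam1, Itga2 and Itga4. These matches are descriptions of sequence and say nothing about binding.

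In NK-like cells Icam1 was the member that separated the libraries. It had 4624 UMIs in the KO library, or 377 CPM, and 2287 UMIs in the WT library, or 128 CPM. The exact 95% Poisson intervals, 366 to 388 CPM and 122 to 133 CPM, did not overlap. The log2 ratio of KO over WT, taken after adding 1 CPM to each, was 1.56, with an exact conditional binomial interval of 1.49 to 1.64. These intervals cover counting error only and leave out the added CPM. They are narrower than they should be for genes whose level varies between cells, Icam1 included, and for genes held by few cells. Icam1 was the 1 gene at least 1.5-fold apart among the 8 members with at least 200 UMIs, beside 8.44% of the 7971 genes of that depth. Of these, 5.82% were higher and 2.62% lower, and their median log2 ratio was 0.04. With every cell thinned to 2500 UMIs, an Icam1 UMI was found in 45.6% of NK-like cells in KO and 23.6% in WT, against 18.5% and 13.4% of T-like cells. Without thinning the NK-like shares were 55.5% and 36.5%.

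**Figure D1:**
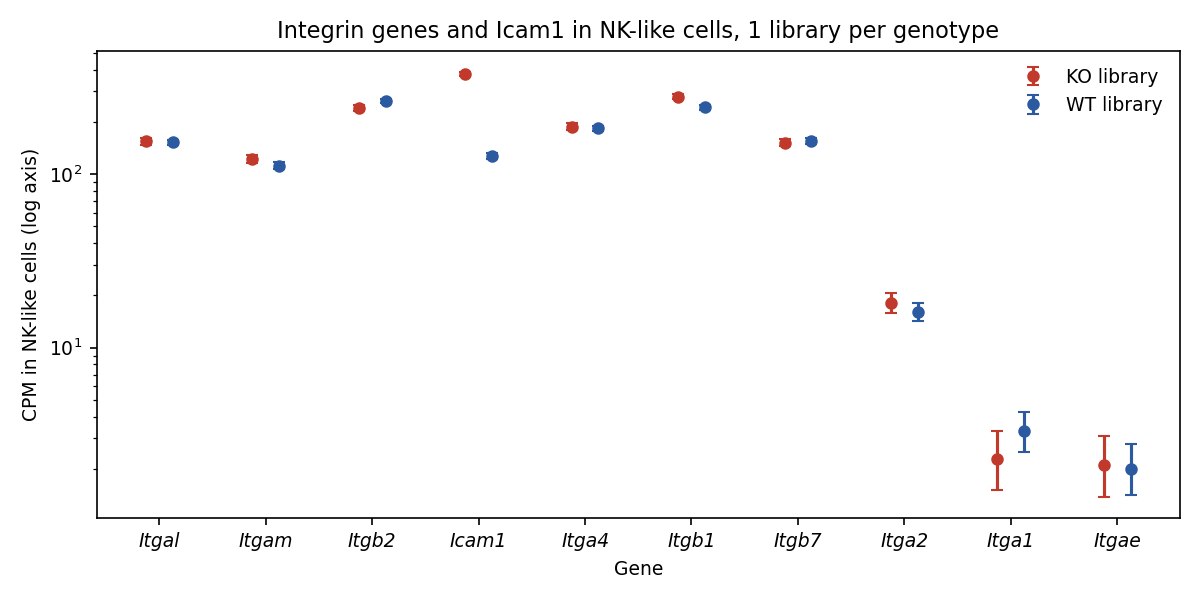
Level of the 10 genes in NK-like cells, in CPM on a log axis, in the KO (red) and WT (blue) library; points are sums over cells and bars exact 95% Poisson intervals. Icam1 stands at 377 and 128 CPM, while the other 9 genes lie close together in both libraries or have under 60 UMIs in each.

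The beta2 family showed small differences in NK-like cells. Itgb2 (chromosome 10, 77530252 to 77565708), the shared beta chain of LFA-1 and Mac-1, stood at 240.4 CPM in KO and 264 CPM in WT, from 2947 and 4727 UMIs. Its log2 ratio was -0.13 (-0.20 to -0.07), lower in KO by less than 1.5-fold. Itgam (chromosome 7, 128062640 to 128118491), the alpha chain of Mac-1, stood at 122 CPM in KO and 112 CPM in WT, a log2 ratio of 0.12 (0.02 to 0.22). Itgal (chromosome 7, 127296260 to 127335138), the alpha chain of LFA-1, stood at 155 and 152 CPM, with a log2 ratio of 0.02 and an interval that includes 0. The share of thinned NK-like cells with an Itgam UMI was 25.5% in KO and 25.6% in WT, while it was 1.54% and 1.79% among T-like cells. For Itgal the NK-like shares were 30.1% and 31.9%, and for Itgb2 40.2% and 42.6%. The genes of the 3 receptor chains were thus at most 1.10-fold apart between the libraries, while that of their ligand was 2.94-fold apart.

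The alpha4, beta1 and beta7 chains were also close. Itga4 (chromosome 2, 79255426 to 79333123) stood at 188 CPM in KO and 184 CPM in WT NK-like cells, a log2 ratio of 0.03 (-0.05 to 0.11). Itgb7 (chromosome 15, 102215995 to 102231944), which pairs with alpha4 or alphaE, stood at 152 and 155 CPM, a log2 ratio of -0.03 (-0.11 to 0.06). Itgb1 (chromosome 8, 128685654 to 128733200), the beta chain shared by the collagen, laminin and fibronectin receptors, stood at 279.6 and 243 CPM. Its log2 ratio of 0.20 (0.14 to 0.27) was the largest among the 7 integrin genes with at least 200 UMIs, and stayed under 1.5-fold. In thinned NK-like cells, an Itgb1 UMI was found in 48.1% of KO and 46.4% of WT cells, and the intervals of these shares overlapped.

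The collagen receptor chains and alphaE were sparse. Itga2 (chromosome 13, 114833081 to 114932100), which encodes the NK cell marker CD49b, had 223 UMIs in KO and 288 in WT NK-like cells, or 18.2 and 16.1 CPM. Its log2 ratio was 0.17 (-0.08 to 0.44), and 4.64% and 4.03% of thinned cells carried a UMI. Itga1 (chromosome 13, 114953096 to 115101964), encoding CD49a, had 28 and 59 UMIs, or 2.28 and 3.29 CPM. Itgae (chromosome 11, 73090583 to 73147446), the alpha chain that pairs with beta7, had 26 and 36 UMIs, or 2.12 and 2.01 CPM. The Poisson intervals of both genes overlapped between the libraries, and a difference was not detectable at this depth. Fewer than 1% of thinned NK-like cells carried a UMI of either gene.

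The NK-like cells fell into 7 sub-clusters of very unequal make-up, and the libraries differed in which of them held most cells. Sub-clusters 2 and 4, led by Ccr7, Ier5l and Vegfa and by Gadd45b, Ccl4 and Csrnp1, held 991 and 684 KO but 138 and 78 WT cells. Sub-cluster 3 held 174 KO and 946 WT cells. Of the Icam1 UMIs of KO NK-like cells, 48.1% came from sub-cluster 4 and 36.4% from sub-cluster 2, against 9.79% and 10.2% of those of WT cells. The largest WT portion, 32.2%, came from sub-cluster 3. Within sub-cluster 4 itself, Icam1 stood at 870.4 CPM in KO and 721 CPM in WT cells. In sub-cluster 6 it stood at 157 CPM (113 to 212) in 20 KO cells and at 66.8 CPM (56.5 to 78.5) in 143 WT cells. Icam1 was left out when the clusters were drawn, but NF-kB genes were not, so fewer cells of a state and a changed state of the same cells cannot be told apart.

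Within the 5 sub-clusters that held at least 100 cells of both libraries, the Icam1 difference kept its sign and was smaller. Its log2 ratio was 0.13 (-0.13 to 0.38) in sub-cluster 0, led by Cx3cr1 and S1pr5, and 0.39 in sub-cluster 1, led by Ltb and Cd3d. It was 0.37 in sub-cluster 2, and 0.59 in both sub-cluster 3 and sub-cluster 5, the last led by Gm26802, Hspa1a and Hspa1b. In the last pair it reached 1.5-fold, which 4.92% and 5.91% of the genes with at least 200 UMIs did in either direction. With the KO sub-clusters given the shares of cells they had in WT, the log2 ratio over all NK-like cells was 0.51. Itgb1 was higher in KO in each of the 5 sub-clusters, by log2 ratios of 0.07 to 0.41. Its intervals included 0 in sub-cluster 0 (-0.09 to 0.23) and sub-cluster 1 (-0.05 to 0.25). Itgb2 went both ways, from -0.61 in sub-cluster 3 (-0.84 to -0.39; 260.0 CPM in KO and 397 CPM in WT) to 0.27 in sub-cluster 1. The other integrin genes with at least 200 UMIs, Itgam, Itga4, Itgal and Itgb7 in each sub-cluster, stayed within 1.5-fold. In sub-clusters 0, 1 and 2, where 4.89%, 4.73% and 10.3% of genes were 1.5-fold apart, no member was.

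**Figure D2:**
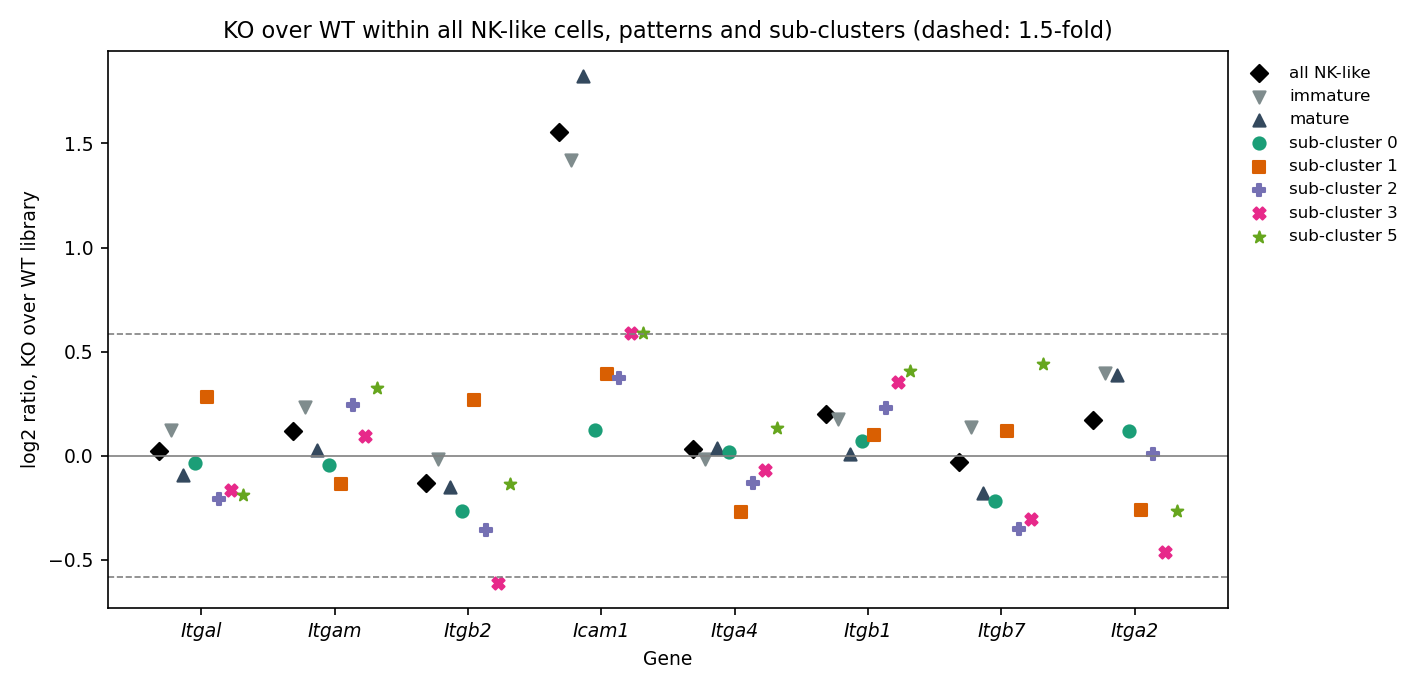
Log2 ratio of KO over WT for the 8 genes with at least 200 UMIs, in all NK-like cells, in cells of the immature and mature patterns and in the 5 sub-clusters compared; dashed lines mark 1.5-fold, and the Itga2 points other than that of all NK-like cells rest on under 200 UMIs. Icam1 lies at 1.56 over all NK-like cells and between 0.13 and 0.59 within the 5 sub-clusters compared.

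Icam1 followed the number of NF-kB program genes detected in a cell. Thinned NK-like cells were sorted by how many of 16 such genes, inhibitors, subunits and targets other than Icam1, had a UMI. Icam1 stood at 84.1, 112, 319 and 625 CPM in KO cells with 0 to 1, 2 to 3, 4 to 5 and 6 or more of them, and at 58.3, 84.5, 159 and 323 CPM in WT cells. The KO level lay above the WT level in each bin, with log2 ratios of 0.52 (0.11 to 0.93), 0.40 (0.21 to 0.61), 1.0 (0.87 to 1.14) and 0.95 (0.83 to 1.08). The bins were filled differently, since 43.7% of KO but 12.7% of WT cells had 6 or more of these genes. Itgb2 did not follow this order, at 269.98, 213, 236 and 255 CPM in KO and 247, 260.2, 281 and 263 CPM in WT cells. Itgb1 stayed between 262 and 279 CPM in KO and between 232 and 257 CPM in WT cells. Itgam lay between 97.6 and 132 CPM in KO and between 99.9 and 128 CPM in WT cells.

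**Figure D3:**
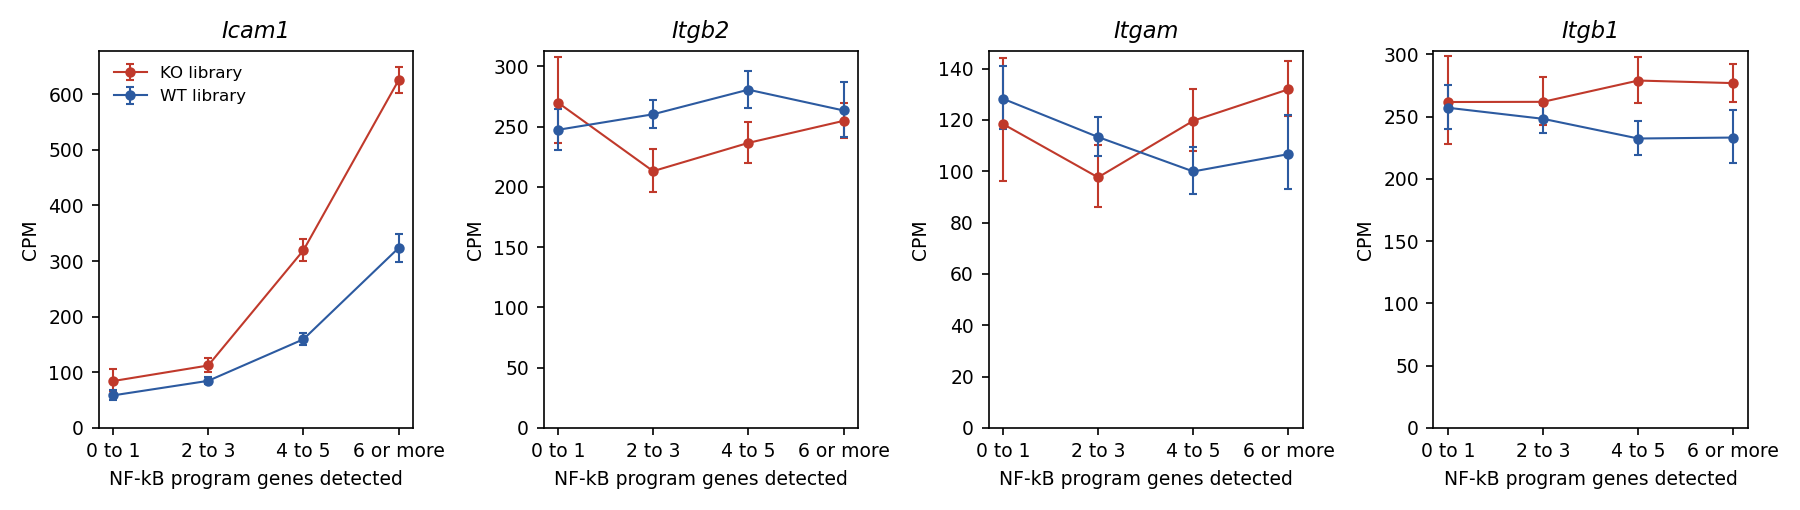
Level (CPM) of Icam1, Itgb2, Itgam and Itgb1 in NK-like cells sorted by the number of NF-kB program genes detected after thinning, in the KO (red) and WT (blue) library, with exact 95% Poisson intervals as bars. Icam1 reaches 625 CPM in KO and 323 CPM in WT cells with 6 or more such genes, from 84.1 and 58.3 CPM with 0 to 1.

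Several integrin genes stood higher in mature than in immature NK-like cells of both libraries, by more than they differed between KO and WT. A cell was given the mature pattern where thinned counts showed at least 2 more detected mature markers (Cx3cr1, S1pr5, Zeb2, Klrg1, Cma1 and S1pr1) than immature ones (Cd27, Emb, Ctla2a, Ltb, Tcf7 and Thy1), and the immature pattern for the reverse. This put 336 KO and 557 WT cells in the mature and 822 and 957 in the immature pattern, with 1322 and 1687 between. The patterns are ranges of a score, and 227 of the mature KO and 347 of the mature WT cells lay right at the limit, with 382 and 469 just under it. At the immature limit 390 KO and 471 WT cells lay just inside, and 483 and 621 just outside.

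Itgam had the largest difference between the patterns. It stood at 231 CPM in mature and 58.2 CPM in immature KO cells, and at 227 and 49.3 CPM in WT cells. The log2 ratio of mature over immature was 1.97 (1.75 to 2.24) in KO and 2.18 (2.0 to 2.41) in WT. Itgb2, its partner chain, stood at 389 and 171 CPM in KO (log2 ratio 1.18, 1.03 to 1.35) and at 432 and 173 CPM in WT cells (1.32). Itga4 stood at 243 and 150.4 CPM in KO (0.69) and at 237 and 152 CPM in WT cells (0.64). The intervals of the 2 patterns did not overlap for any of these 3 genes in either library. Of the 7 members with 200 UMIs or more, 4 stood at least 1.5-fold higher in mature cells of each library and 0 as much lower. Over all genes that deep, 4.85% were higher and 5.05% lower in KO, and 5.01% and 5.83% in WT.

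The fourth gene was not the same in the 2 libraries. In KO it was Icam1, at 508 CPM in mature and 265 CPM in immature cells, a log2 ratio of 0.94 (0.80 to 1.08). In WT it was Itgb7, at 230.0 and 131 CPM, a log2 ratio of 0.81 (0.66 to 0.97). Itgb7 stood at 203 and 144 CPM in KO cells (0.49, 0.29 to 0.70), and Icam1 at 143 and 98.2 CPM in WT cells (0.54, 0.35 to 0.73). These were also higher in the mature pattern, by less than 1.5-fold, and the difference between libraries in this contrast was not tested. The sub-clusters gave another picture for Icam1. In sub-cluster 0, led by Cx3cr1 and S1pr5, Icam1 stood at 116 CPM in KO and 106 CPM in WT cells. These levels lay below those of all NK-like cells, 377 and 128 CPM, and in KO below that of the immature pattern.

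Itgal and Itgb1 differed by less than 1.5-fold between the patterns in both libraries. Itgal had log2 ratios of mature over immature of 0.18 (-0.04 to 0.40) in KO and 0.40 (0.24 to 0.56) in WT. Itgb1 had 0.04 (-0.13 to 0.21) and 0.21 (0.08 to 0.34). LFA-1 and Mac-1 thus shared a beta chain gene that was higher in mature cells. The alpha chain gene was much higher there for Mac-1. For LFA-1 it was less than 1.5-fold higher, with an interval that included 0 in KO and not in WT. Itga2, with 41 and 60 UMIs in KO and 57 and 63 in WT cells, stood at 29.2 and 14.0 CPM in KO and at 22.1 and 10.4 CPM in WT cells. Its log2 ratios were 1.01 (0.45 to 1.66) and 1.02 (0.54 to 1.62), and it was too sparse for the count above. Itga1 and Itgae had 1 to 13 UMIs per pattern and library, too few for a direction.

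**Figure D4:**
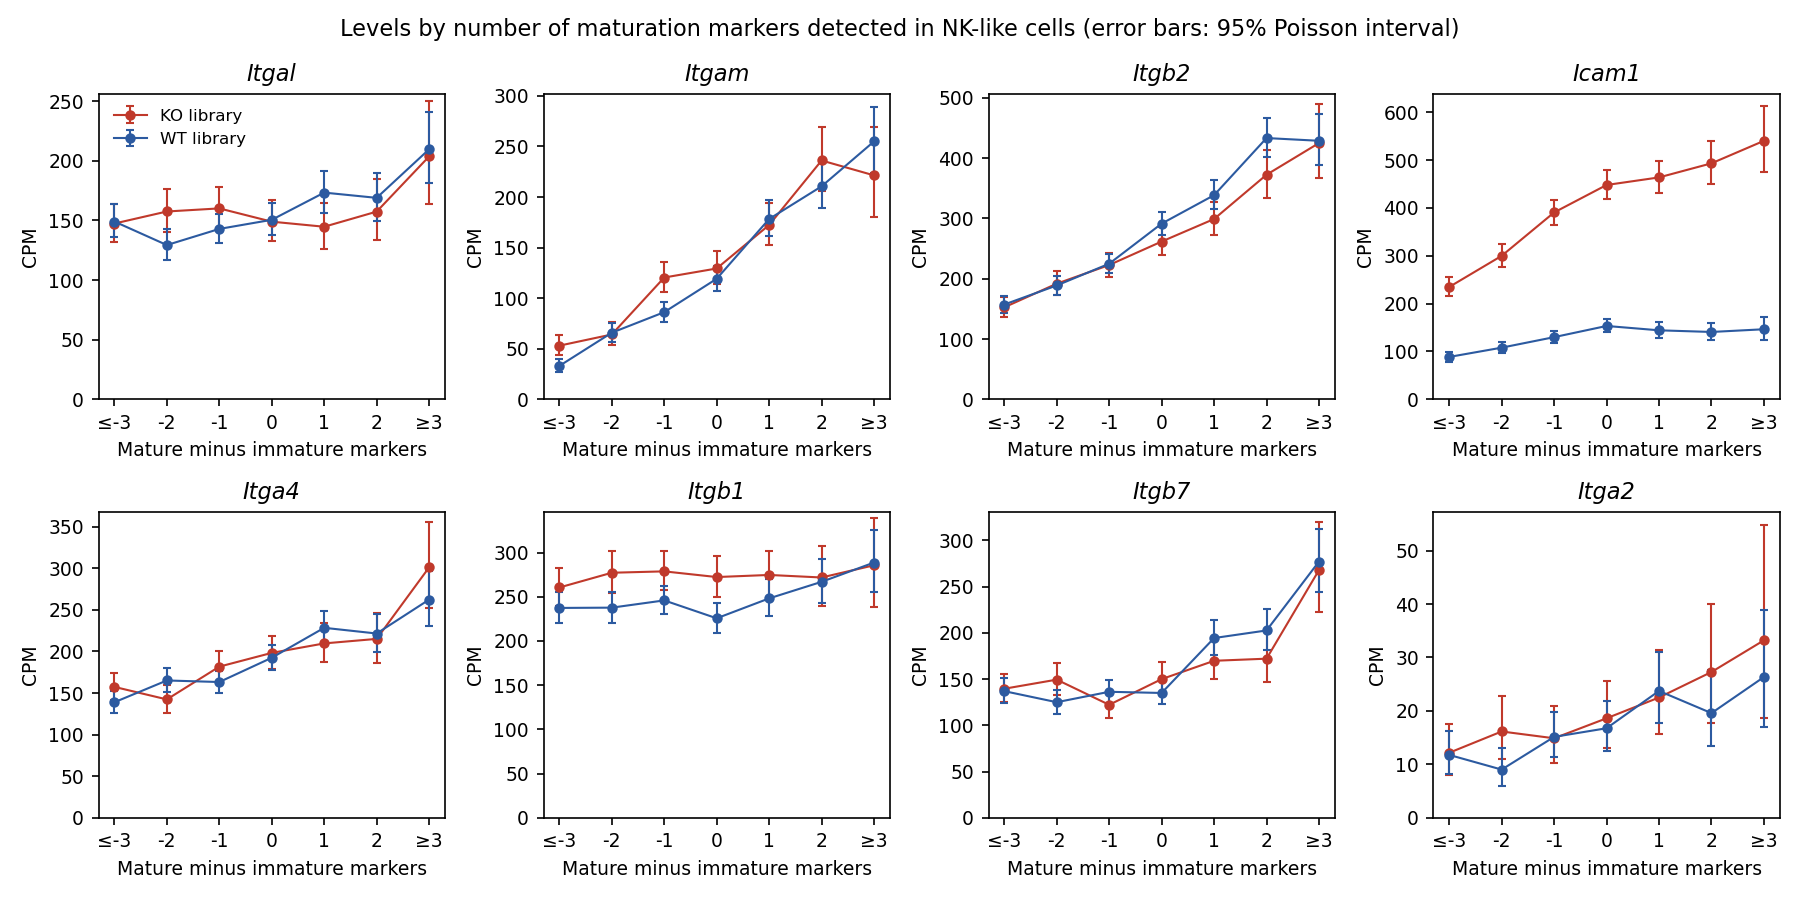
Level (CPM) of 8 genes in NK-like cells by the number of mature minus immature markers detected after thinning, in the KO (red) and WT (blue) library, with exact 95% Poisson intervals as bars. Itgam runs from 53.1 and 33.0 CPM at -3 or less to 221 and 255 CPM at 3 or more in KO and WT, while Itgb1 stays nearly flat.

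The levels followed the marker score step by step for some genes. Itgb2 stood at 153, 192, 223, 262, 299, 373 and 425 CPM in KO cells from a score of -3 or less to 3 or more, and at 157, 189, 225, 291, 339, 433 and 429 CPM in WT cells. Icam1 stood at 235, 299.9, 391, 448, 464, 493 and 540.2 CPM in KO cells. In WT cells Icam1 stood at 88.6, 108 and 130.0 CPM up to a score of -1 and between 141 and 153 CPM from 0 on, with overlapping intervals. Within the mature pattern the KO over WT log2 ratio of Icam1 was 1.82 (1.65 to 2.02), and within the immature pattern 1.42 (1.29 to 1.58). It was the 1 member 1.5-fold apart in each pattern, where 8.07% of genes in the mature and 8.36% in the immature pattern were. The ratios of the 6 integrin genes with at least 200 UMIs there ran from -0.18 (Itgb7) to 0.04 (Itga4) in the mature pattern. They ran from -0.02 (Itgb2) to 0.24 (Itgam) in the immature pattern.

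ILC1-like cells carried less Itgam, Itga2, Itgb2 and Itga4 than NK-like cells. Itgam stood at 14.6 CPM in WT ILC1-like cells, from 12 UMIs, and at 112 CPM in WT NK-like cells, a log2 ratio of -2.86 (-3.90 to -2.14). In KO the values were 42.7 CPM, from 25 UMIs, and 122 CPM, a log2 ratio of -1.49 (-2.15 to -0.95). The 25 UMIs came from 10 cells, 7 of them from a single cell. Other cell types moved with this value, since markers of myeloid cells summed to 995 CPM in KO and 9.70 CPM in WT ILC1-like cells, those of granulocytes to 415 and 2.43 CPM and those of B cells to 164 and 9.70 CPM. All 9 myeloid markers had a UMI in the KO cells, and 7 of the 9 were at 0 in the WT cells, Lyz2, Csf1r, C1qa, C1qc, Adgre1, Cd14 and Apoe. Without the 13 KO cells that carried at least 2 of these markers (0 in WT), 4 Itgam UMIs remained, or 7.62 CPM, and the log2 ratio was -3.83. This alternative was added after the values were seen. With a finer clustering of all cells the KO log2 ratio was -3.96. There the ILC1-like cluster held 98 KO cells, and a cluster of 227 KO and 254 WT cells led by Cd74 and H2-Ab1 stayed unnamed. Both groups compared thus differed from those above.

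Itga2, encoding CD49b, had 1 UMI in KO and 3 UMIs in WT ILC1-like cells, or 1.71 and 3.64 CPM against 18.2 and 16.1 CPM in NK-like cells. The log2 ratios were -2.83 (-8.72 to -0.92) and -1.88 (-4.43 to -0.58). Itgb2 stood at 113 CPM in KO and 129 CPM in WT ILC1-like cells, log2 ratios of -1.09 (-1.47 to -0.74) and -1.03 (-1.33 to -0.76) over NK-like cells. Itga4 stood at 95.5 and 119 CPM, log2 ratios of -0.97 and -0.63. Itgam, Itga2, Itga4 and Itgb2 were thus at least 1.5-fold lower in ILC1-like cells of both libraries. With Icam1 this made 5 of the 8 members with 200 UMIs or more in KO and 4 of 8 in WT, where 13% and 11.5% of genes were as much lower. The 200 UMIs were summed over both groups and lay mostly in NK-like cells. Genes sparse in NK-like cells, such as Itga1 and Itgae, could hardly enter. This tilts these counts and shares toward genes lower in ILC1-like cells. Itga1, the gene of the ILC1 marker CD49a, had 4 UMIs in each library, or 6.82 CPM (1.86 to 17.5) in KO and 4.85 CPM (1.32 to 12.4) in WT. These intervals overlap those of NK-like cells, so a higher level was not detectable at this depth.

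Itgb7, Itgb1 and Itgal were nearer to their NK-like levels. Itgb7 stood at 230.3 CPM in KO ILC1-like cells, the 1 member at least 1.5-fold higher (log2 ratio 0.60, 0.34 to 0.85), where 6.4% of genes were. In WT ILC1-like cells it stood at 170 CPM (0.13, -0.12 to 0.38), and there 0 members were 1.5-fold higher, against 6.29% of genes. Itgb1 stood at 227 CPM in KO and 278 CPM in WT cells, log2 ratios of -0.30 (-0.56 to -0.05) and 0.19 (-0.01 to 0.38). Itgal stood at 111 and 142 CPM, log2 ratios of -0.48 (-0.86 to -0.12) and -0.10 (-0.38 to 0.16). Itgae had 4 UMIs in KO, all in 1 cell, and 0 of 824484 UMIs in WT, which allows up to 3.64 CPM at a limit of 3 UMIs for a count of 0, while the exact Poisson interval ends at 4.47 CPM.

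Icam1 took opposite places in the 2 libraries. In KO it stood at 223 CPM in ILC1-like and 377 CPM in NK-like cells, a log2 ratio of -0.75 (-1.02 to -0.50). In WT it stood at 182 and 128 CPM, a log2 ratio of 0.51 (0.26 to 0.75). The shares of thinned WT cells with an Icam1 UMI, 29.2% and 23.6%, had overlapping intervals. Between the libraries, ILC1-like cells differed in Icam1 by a log2 ratio of 0.30 (-0.05 to 0.64), and 0 of the 3 members with at least 200 UMIs there were 1.5-fold apart, against 7.69% of genes. T-like cells had 53 Icam1 UMIs in KO and 43 in WT, or 165 and 75.9 CPM, a log2 ratio of 1.11 (0.51 to 1.74) on under 200 UMIs.

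**Figure D5:**
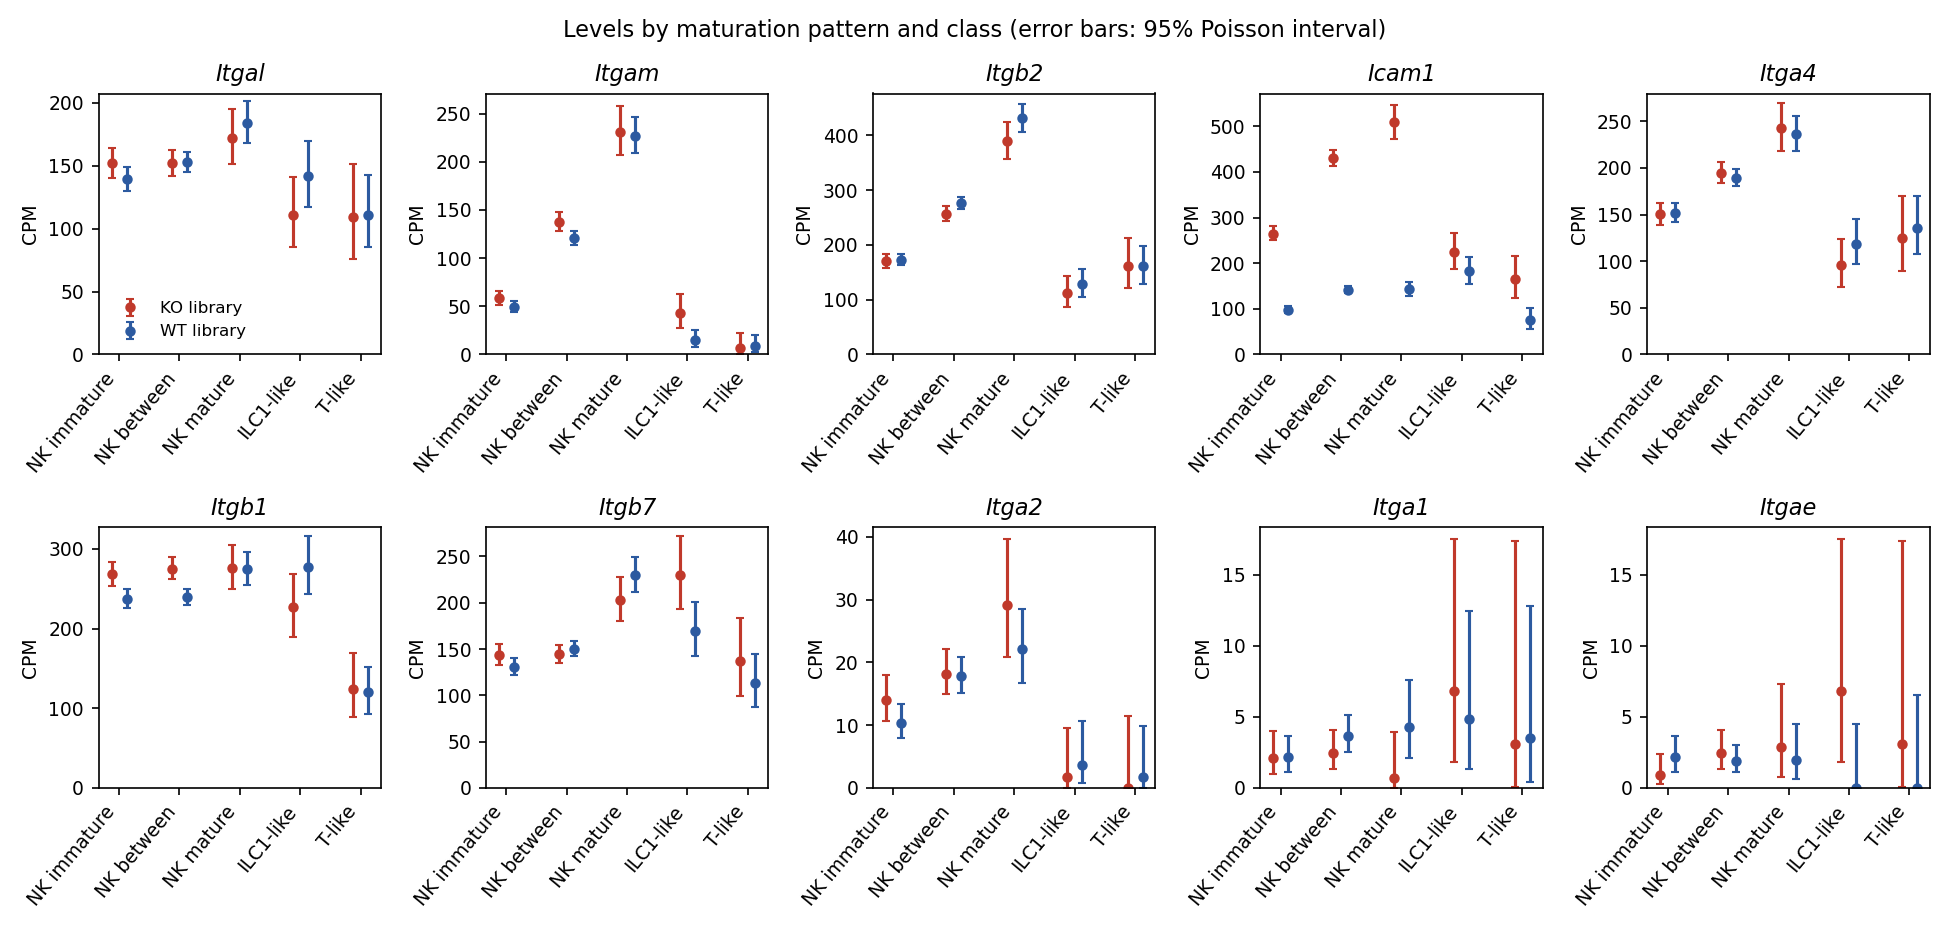
Level (CPM) of the 10 genes in NK-like cells of the immature pattern, between the patterns and of the mature pattern, and in ILC1-like and T-like cells, in the KO (red) and WT (blue) library, with exact 95% Poisson intervals as bars. Itgam stands at 231 and 227 CPM in mature NK-like cells and at 42.7 and 14.6 CPM in ILC1-like cells, and Icam1 in KO stands above WT in each NK-like group.

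The order of the cell groups was similar for several genes. Itgam was highest in mature cells, followed by those between the patterns, immature, ILC1-like and T-like cells in both libraries. The intervals of the last 2 groups overlapped in WT, and those of immature and ILC1-like cells in KO. Itgb2 and Itga4 had the same first 3 groups, with overlapping intervals among immature and T-like cells and among T-like and ILC1-like cells. For Icam1 the KO order was mature, between, immature, ILC1-like and T-like, with overlap between neighbours from immature downwards. In WT it was ILC1-like, mature, between, immature and T-like, and the first 3 overlapped each with its neighbour. Itgb7 was led by ILC1-like cells in KO and by mature cells in WT, and T-like cells were lowest in both. Itgb1 in T-like cells stood at 125 and 120 CPM, below each other group, whose levels ran from 227 to 278 CPM.

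NK-like cells with an Itgam UMI more often had a UMI of its partner chain, and also of a chain that forms no pair with it. Among thinned NK-like cells with an Itgam UMI, 50.4% in KO and 48.9% in WT also had an Itgb2 UMI, against 36.7% and 40.5% of cells with no Itgam UMI. Those exact binomial intervals did not overlap in either library. An Itga4 UMI, from another alpha chain, was found in 40.8% against 34.9% of KO and 43.5% against 37.9% of WT cells, with intervals that overlapped in KO and not in WT. For Itgal and Itgb2 the shares were 43.4% against 38.8% in KO and 45.8% against 41.2% in WT, and the intervals overlapped in both. For Itga4 and Itgb7 they were 31.4% against 29.2% and 31.5% against 27.4%, also with overlap. For Itga4 and Itgb1 they were 48.6% against 47.8% and 47.5% against 45.6%, and the intervals overlapped. Ligand and receptor gave 51.7% against 43.5% of KO cells with Icam1 by Itgam detection, and 26.0% against 22.8% in WT, where the intervals overlapped. By Itgal detection the Icam1 shares were 44.6% against 46.0% in KO and 26.0% against 22.5% in WT, with overlap in both. At 2500 UMIs a missing UMI does not show a missing transcript, and these weak relations are given as counts.

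Genes whose level was most like that of a member were ranked by Pearson's r of log2(CPM + 1) over 17 groups, the sub-clusters and classes of each library centred within it, among 5807 genes. These points share libraries and were formed from the counts of many of these genes, so r is a description. Icam1 was most like Nfkbid, which encodes an atypical inhibitor of NF-kB (0.97), and the kinase gene Pim1 (0.96). Itgam was most like Tmod3, encoding an actin-capping protein, and Fcer1g, encoding the shared Fc receptor signalling chain (both 0.96 or 0.95). Itga4 was most like the chemokine gene Ccl5 (0.95) and Borcs7 (0.95), and Itga2 like Plek and Itgax (both 0.93). Itgb2 was most like the adaptor gene Dok2 and the actin-nucleation subunit gene Arpc2 (both 0.86), Itgb1 like Itih5 and the kinase gene Syk (both 0.93), and Itgal like Tmf1 and Chsy1 (0.89 and 0.88). Itgb7 had a less close neighbour in Xdh (0.72), and the sparse genes Itga1 and Itgae reached 0.89 with Tusc3 and 0.80 with Morc3.

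Among the other adhesion genes, those that activate or anchor integrins were close between the libraries, while some integrin subunits and ligands were not. Over all 10311 genes with 50 UMIs or more, 6.68% stood at least 1.5-fold higher in KO and 4.03% lower, and the median log2 ratio was 0.04. Of 34 genes that activate integrins or anchor them to actin, 28 were measured, and 0 were 1.5-fold higher or lower, with a median of 0.04. The largest were Cyth1 (0.57) and Cytip (0.43), a regulator of beta2 adhesion and its binding partner, Was (-0.37), an actin regulator, and the adaptor gene Fyb (0.35). Tln1, encoding talin, stood at 194 and 196 CPM, and Fermt3, encoding kindlin-3, at 106 and 110 CPM. Of the other 17 integrin subunits 6 were measured, 1 higher and 1 lower. The higher one was Itgb3, the beta chain of the vitronectin receptor, at 205 CPM in KO and 76.8 CPM in WT (log2 ratio 1.40), and the lower one Itgad, with 30 and 87 UMIs (-0.76). Itgav, the alpha partner of Itgb3, stood at 19.9 and 25.9 CPM (-0.37), Itgax at 58.6 and 78.4 CPM (-0.41), and Itga5, encoding the fibronectin receptor chain, at 6.44 and 4.24 CPM (0.51).

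Ligands and other adhesion genes went both ways. Of 23 listed, 14 were measured, 1 was higher and 2 were lower. Spp1, encoding osteopontin, a ligand of several integrins, stood at 228 CPM in KO and 445 CPM in WT (-0.96), and Crtam, encoding a receptor for nectin-like adhesion, at 17.2 and 29.1 CPM (-0.72). Cd226, which encodes the adhesion receptor DNAM-1, stood at 17.4 and 11.2 CPM (0.59), and Cd44 at 77.2 and 63.4 CPM (0.28). Icam2, another LFA-1 ligand gene, stood at 60.5 and 55.2 CPM (0.13), and Tln1, Fermt3, Itgav and Icam2 were picked after their values were seen. The NF-kB program differed more, with 12 of 16 genes higher, 0 lower and a median log2 ratio of 0.86, led by Nfkbid (2.32), Nfkbiz (2.14), Tnfaip3 (1.41) and Cd83 (1.30). Of 10 genes of the TGF-beta response 7 were higher and 0 lower, with a median of 0.63, led by Pmepa1 (1.85), Tgif1 (1.48), Skil (1.14) and Ski (0.74). Itgae, a gene that TGF-beta is known to induce in lymphocytes, had a log2 ratio of 0.05 (-0.71 to 0.85) beside these values, on 62 UMIs.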

How the data were processed

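The deposited tables held raw whole-number UMI counts per gene and cell barcode, 1 table per library, per the labels. The submitters' processing notes name mm10, Seurat and Cell Ranger 2.0.2, with no role for each. How genes were annotated, how cells were called and whether doublets were removed is not given in the sources used here. The KO table held 3110 barcodes with 13407906 UMIs and that of WT 3574 barcodes with 19553440 UMIs, at 1464 to 29202 and 2364 to 52557 UMIs per barcode. Barcodes with at least 500 genes and at most 10% mitochondrial UMIs were used.

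All kept cells were clustered jointly with scanpy 1.11.5 and leidenalg 0.10.2 on 2000 variable genes, scaled, 30 principal components and 15 neighbours, at resolution 0.8, and NK-like cells again at 0.6. The 10 genes and 3 adhesion lists, 83 genes in all, took no part. A cluster was named from its 10 leading genes if 3 or more of them marked the same class, or else from the class whose markers its cells carried most. Markers found at a like share in every cluster (Hba-a1, Hba-a2, Hbb-bs and Lat) and markers shared with the maturation lists named no class. Scrublet called 2 of 6622 cells (0.0302%), too few for the caller to be relied on, and doublets were kept.

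UMIs were summed per library and group and scaled to CPM. A fold is called at 1.5-fold among genes with 200 or more UMIs over the groups compared, or at least 50 for gene lists. Ratios have exact conditional binomial, sums exact Poisson and shares Clopper-Pearson intervals at 95%, covering counting error only. Shares and patterns use cells thinned to 2500 UMIs, for which 403 NK-like cells of KO and 89 of WT were too shallow. Named besides the 10 genes are the 2 genes most like each, among those with at least 500 UMIs, and up to 4 genes per list with 100 or more UMIs and the largest absolute ratio; others named were picked after their values were seen. The genes and lists were chosen with earlier results of these data known. The ratio and interval step was run on simulated Poisson counts for KO over WT in NK-like cells over 7971 genes. The interval covered the true value for 95.8% of unchanged genes, and for 94.0% and 91.0% of those changed 2-fold and 4-fold. Poisson error is what the interval assumes, and no spread between cells or libraries was simulated. This run therefore checks the calculation only, and not whether the intervals are wide enough for these data. Gene positions are from GENCODE on GRCm38. One gene that the rule for similar patterns named is not reported here.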

Additional observations from a re-analysis of the deposited data

Results flagged for a closer look

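Icam1 went opposite ways in the 2 libraries when ILC1-like cells were set against NK-like cells. The log2 ratio was -0.75 in the KO library and 0.51 in the WT library, and neither counting interval included 0. In thinned WT cells an Icam1 UMI was found in 29.2% of ILC1-like and 23.6% of NK-like cells, with overlapping intervals. In KO the shares were 33.0% and 45.6%. The 10 ILC1-like cells with most Icam1 UMIs held 36.7% of those UMIs in WT and 51.9% in KO, which the counting intervals leave out. The difference between the libraries was not tested, since each rests on 1 library. The same cells of the KO library also carried myeloid, granulocyte and B cell markers at higher sums than those of the WT library, and without the 13 KO cells carrying at least 2 of them Icam1 stood at 225 CPM in KO ILC1-like cells, close to the 223 CPM with them.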

How the results depend on the processing

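Over 363 alternative values, 257 stayed within the error of the reported value (or within 1.5 times a reported count) and 106 moved. No called value changed sign. The Icam1 log2 ratio of KO over WT in NK-like cells, 1.56 as reported, ranged from 0.13 to 1.57 over 18 alternatives and was past 1.5-fold in 14. It was 1.46 without cells carrying 2 or more cycling markers, 0.51 with KO sub-clusters given the WT shares of cells, and 0.13, 0.39, 0.37, 0.59 and 0.59 within sub-clusters 0, 1, 2, 3 and 5; the cause was not tested. Among the other integrin subunits the count of lower genes went from 1 to 0 where at least 200 UMIs were asked for, since Itgad had fewer. Among ligands and other adhesion genes the count of higher genes went from 1 to 0 with median-of-ratios size factors. These lowered log2 ratios by about 0.05, and by less for sparse genes such as Itga1 and Itgae. Itgb2 was below 0 in 17 of its 18 alternatives and Itgb1 in 0 of 18. Mature over immature, Itgam stayed between 1.32 and 2.04 in KO and between 1.68 and 2.91 in WT under 3 other settings of the patterns. Leaving out cells with 2 or more myeloid, granulocyte, B or dendritic cell markers, and the matching ILC1-like alternative, were chosen after seeing the data. No paired analysis was possible because each genotype had 1 library, and for the same reason no replicate could be left out. Depth limits Itga1 and Itgae throughout, and Itga2 outside NK-like cells.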

Other observations

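In NK-like cells Itgb3, an integrin gene outside the 10 described, had 2508 UMIs in KO and 1378 in WT. Icam5, a relative of Icam1, had 24 UMIs in KO and 6 in WT NK-like cells, and F11r, encoding an LFA-1 ligand of junctions, had 20 and 10. Both were under the 50 UMIs asked for and were picked after their values were seen. Vcam1, Cdh1 and Fn1, the ligand genes of alpha4, alphaE and fibronectin-binding integrins, had 5 to 10 UMIs per library, and Madcam1 had 0 in both.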
